A study of Mus musculus with 64 samples.

Results

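The 6 libraries described here were chosen by their labels from 64 samples of the series, of which 60 have a peak list. They are 3 β-catenin ChIP-seq libraries of SOX2-ON cells and 3 of naive embryonic stem cells (naive ESC). ChIP-seq is the sequencing of DNA recovered with an antibody, here a rabbit antibody against β-catenin, from cells fixed first with a protein crosslinker and then with paraformaldehyde. Naive ESC were wild-type mouse cells of the male HM1 TetON line (strain 129), labelled 72 h, which received no doxycycline and were held in 2i medium with 3 µM CHIR99021 and 500 nM PD0325901. SOX2-ON cells came from the same line but had lost both endogenous Sox2 alleles. They carried a doxycycline-driven Sox2 transgene at the Hprt locus, with the rtTA activator at Rosa26, and derive from selected clones. SOX2-ON cells were kept in 1 µg/ml doxycycline and differentiated for 2 days with 10 ng/ml bFGF and 5 µM LGK974, after which CHIR99021 was added until day 3, at 5 mM by the labels and 5 µM by the methods. Both groups therefore carried a source of SOX2 and received CHIR99021, but not at the same dose, and both had been propagated on feeder fibroblasts. Caudal epiblast-like cells (CEpiLC), which were wild-type and received no doxycycline, and SOX2-OFF cells, the transgenic cells taken off doxycycline while differentiating, served for comparison. Both of these were differentiated in the same media as SOX2-ON. Genotype, doxycycline, medium, CHIR99021 dose and developmental state all change together between the groups and cannot be told apart. Peak lists hold no expression values, so neither the SOX2 level nor the cell type could be checked from markers here.

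β-catenin is the transcriptional effector of canonical WNT signalling. It does not bind DNA itself but is recruited by the TCF/LEF family, which in these cells includes LEF1, TCF7L1 and TCF7L2, and CHIR99021 stabilises it by inhibiting GSK3, the kinase that marks it for destruction. In naive ESC, β-catenin supports self-renewal in part by relieving repression by TCF7L1, and SOX2 acts with OCT4 at pluripotency enhancers. In the later epiblast the same pathway drives caudal fate, through targets such as the T and Cdx genes. The comparison asks how far β-catenin sites follow developmental state when SOX2 is kept high in both states.

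The deposited lists held 49737, 222062 and 76699 peaks in naive ESC replicates 1 to 3, and 359820, 39154 and 461476 in SOX2-ON replicates 1 to 3. The ranges overlapped, and the difference in log10 list length was 0.30 (exact permutation p = 0.5, two-sided, n = 3 and 3). It was 0.013 without replicate 1, 0.82 without replicate 2 and 0.053 without replicate 3. Read depth is unknown from these lists. Positions were therefore compared in lists of equal length, the 3423 peaks of each library with the largest −log10 p-value, which is the length of the shortest of the 12 β-catenin lists of the series. The lowest enrichment over background (the fold deposited with each peak) in such a list ranged from 3.25 to 7.28. Both replicate 1 libraries carried peaks over coding exons of the transcription factor gene Tfap2a, 7 in each equal-length list, reaching a fold of 99.8 in naive ESC and 188 in SOX2-ON. In the other 4 libraries the strongest peak over these exons, where there was any, reached at most 6.71. Coding exons of Tfap2c and Tcf7l1 had such peaks in the same 2 libraries. The part of these peaks in the results was not tested, but values without replicate 1 are given for list lengths, sites and the indices of the other proteins.

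In lists of equal length the 6 libraries fell into their 2 conditions by where their peaks lay. The Jaccard index, the base pairs shared by 2 lists over the base pairs in either, was 0.452 to 0.539 among naive ESC libraries and 0.383 to 0.395 among SOX2-ON libraries. Between conditions it was 0.178 to 0.239 in the 9 pairs, below every within-condition pair. The within-condition mean of 0.438 exceeded the between-condition mean of 0.210 by 0.229 (exact permutation p = 0.1, the smallest that the 10 divisions of 6 libraries into 3 and 3 allow). With all deposited peaks the difference was 0.0381 (exact permutation p = 0.2), so that at least 1 other division separated the libraries as well. In equal-length lists, libraries of naive ESC were thus more alike than libraries of SOX2-ON, and each library was nearer to its own condition than to the other, by 0.167 to 0.297 on the same index.

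**Figure D1:**
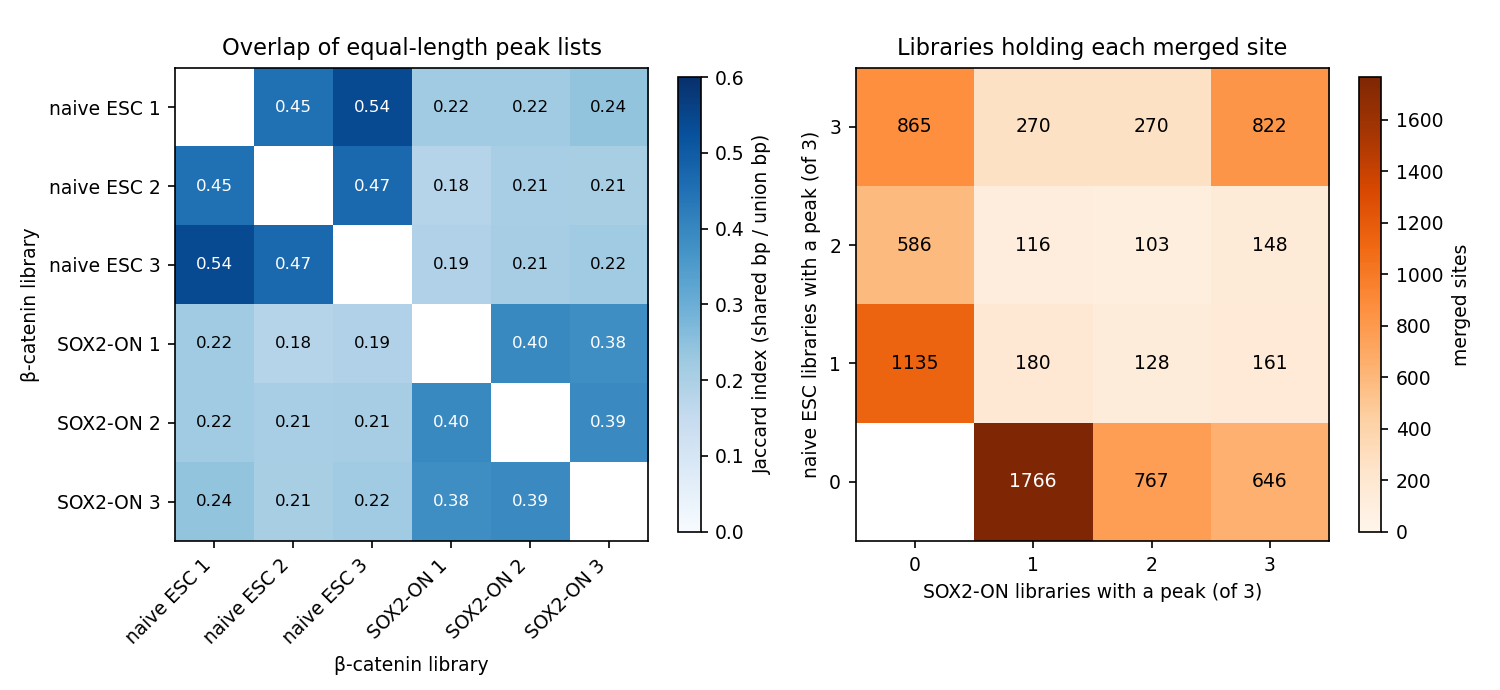
Left, Jaccard index (base pairs shared over base pairs in either list) for each pair of the 6 β-catenin libraries, from equal-length lists of 3423 peaks. Right, number of merged sites by how many naive ESC libraries (vertical axis) and SOX2-ON libraries (horizontal axis) have a peak there. The indices between conditions, at most 0.239, are all paler than those within, and the corners of the right panel hold 865 sites only in naive ESC, 646 only in SOX2-ON and 822 in all 6 libraries.

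Merging the 6 equal-length lists gave 7963 sites. Of these, 865 (10.9%) had a peak in all 3 naive ESC libraries and in no SOX2-ON library, 646 (8.11%) had the opposite pattern, and 822 (10.3%) had a peak in all 6. Without replicate 1 of both conditions, where 2 libraries a condition suffice, the counts were 1127, 973 and 982. Without replicate 2 they were 1233, 919 and 993, and without replicate 3 they were 1140, 1014 and 944. In the main lists a further 1135 sites were held by a single naive ESC library and 1766 by a single SOX2-ON library. A site that is missing from an equal-length list can still be a weaker peak. Of the sites only in naive ESC, 261 (30.2%) had some peak in all 3 full SOX2-ON lists and 120 (13.9%) had none in any. Of the sites only in SOX2-ON, 338 (52.3%) had some peak in all 3 full naive ESC lists and 67 (10.4%) had none. Few of these sites thus lacked any peak in the other condition, although the full lists differ in length, and a site used by fewer cells cannot be told apart from a site bound more weakly in each cell.

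The strongest of the 120 naive ESC sites that were absent from the full SOX2-ON lists lay in an intron of Tamm41, a mitochondrial enzyme of cardiolipin synthesis, at chr6:115009628-115010394 (coordinates here and below are GRCm38, the reference form of the mm10 build). Its fold was 73.2, 52.4 and 57.9 in the 3 naive ESC libraries. The next was between genes, 247977 bp upstream of Tprg, at chr16:25037814-25039191, with folds of 49.9, 30.1 and 49.5. Another lay 10632 bp upstream of Patz1, a zinc-finger regulator of pluripotency, at chr11:3278207-3279149, with folds of 49.2, 40.2 and 46.3. The remaining 2 lay 1949 bp into Pdpk1, which encodes the kinase that activates AKT, and 73024 bp upstream of the transporter gene Slc38a11. Their folds ranged from 34.6 to 57.3. All 5 were also met by peaks of TCF7L1 in at least 2 of 3 naive ESC libraries, by TCF7L2 in at least 2, and by SOX2 in at least 2. Across LEF1, TCF7L1, TCF7L2 and SOX2, no equal-length list of SOX2-ON had a peak at any of them.

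The strongest of the 67 SOX2-ON sites that were absent from the full naive ESC lists was 17103 bp upstream of Rapgef4, a cyclic AMP sensor, at chr2:71963802-71964649. Its fold was 27.6, 15.2 and 32.2 in the 3 SOX2-ON libraries. It was also in 1 of 3 equal-length β-catenin lists of CEpiLC and in all 3 of SOX2-OFF cells. The second, 91220 bp upstream of Ctso at chr3:81841023-81841870, had folds of 21.4, 27.6 and 31.9 and was in no CEpiLC or SOX2-OFF list of any length. The others lay in an intron of the glutamate receptor gene Grid1, 79772 bp upstream of Rabl2 and 1802119 bp upstream of Pik3c3, with folds from 12.2 to 47.8. SOX2 peaks met 4 of these 5 sites in all 3 SOX2-ON libraries and the Rapgef4 site in 1. These sites were weaker than their naive ESC counterparts, with medians over libraries of 24.8 to 27.6 against 44.3 to 57.9.

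The strongest sites common to all 6 libraries had higher folds still. The first lay in an intron of Clstn2, 107225 bp upstream of Trim42, at chr9:97476407-97477838, and had folds of 145, 109.6 and 193 in naive ESC and 122.5, 150.5 and 120.5 in SOX2-ON. The others by the same rule lay 13736 bp upstream of Ube2d2a, in an intron of Lrmda at chr14:22143635-22144870, and 7411 bp upstream of 2510009E07Rik, with folds of at least 75.7 in every library. At these 4 sites TCF7L1, TCF7L2 and SOX2 peaks were present in 3 of 3 libraries of both conditions, and LEF1 peaks in at least 2 of 3.

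The reference sequence from 100 bp before to 100 bp after the strongest summit is shown for 2 sites of each kind, on the plus strand, to compare what lies under them. Capitals mark, on either strand, a TCF sequence (CTTTGAA, also with the last letter replaced by T), a SOX sequence (CATTGT, also with the second letter replaced by T) or a composite OCT-SOX sequence. The Tamm41 window (chr6:115009761-115009961) held 1 TCF sequence and the Ctso window (chr3:81841281-81841481) 1 SOX sequence. The Trim42 window (chr9:97477083-97477283), of a site common to all 6 libraries, held 1 TCF and 3 SOX sequences. The Tprg (chr16:25038740-25038940), Rapgef4 (chr2:71964037-71964237) and Lrmda (chr14:22144128-22144328) windows held none of these letters, which says nothing of the factors themselves.
Tamm41: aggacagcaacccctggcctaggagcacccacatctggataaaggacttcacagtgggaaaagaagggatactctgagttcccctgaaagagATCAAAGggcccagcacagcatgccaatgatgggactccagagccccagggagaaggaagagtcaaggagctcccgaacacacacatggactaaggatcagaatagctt
Tprg: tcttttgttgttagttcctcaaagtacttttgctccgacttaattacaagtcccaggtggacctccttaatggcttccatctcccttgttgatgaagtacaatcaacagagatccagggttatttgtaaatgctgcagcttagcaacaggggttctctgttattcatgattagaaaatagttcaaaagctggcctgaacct
Rapgef4: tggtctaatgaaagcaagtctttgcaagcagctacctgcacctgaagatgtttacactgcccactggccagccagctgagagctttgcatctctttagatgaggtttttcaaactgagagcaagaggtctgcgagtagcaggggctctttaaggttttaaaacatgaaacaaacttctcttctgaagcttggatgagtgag
Ctso: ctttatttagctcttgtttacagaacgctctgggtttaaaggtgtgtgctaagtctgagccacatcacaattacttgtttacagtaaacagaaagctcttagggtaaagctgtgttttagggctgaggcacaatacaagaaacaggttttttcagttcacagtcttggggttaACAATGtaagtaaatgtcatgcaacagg
Trim42: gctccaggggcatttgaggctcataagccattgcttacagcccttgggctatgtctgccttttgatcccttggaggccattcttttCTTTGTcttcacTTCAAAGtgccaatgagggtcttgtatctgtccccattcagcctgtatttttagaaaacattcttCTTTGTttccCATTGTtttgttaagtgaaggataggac
Lrmda: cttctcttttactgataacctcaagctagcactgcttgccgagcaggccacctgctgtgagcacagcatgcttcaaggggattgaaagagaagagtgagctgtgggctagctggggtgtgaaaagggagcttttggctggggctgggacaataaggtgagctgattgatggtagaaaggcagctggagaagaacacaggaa

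Sites only in SOX2-ON lay farther from genes than sites only in naive ESC. Their median distance to the nearest protein-coding start was 58.8 kb against 22.1 kb, with 30.3 kb at sites in all 6 libraries and 32.0 kb over all 7963. The same held library by library, where 33.5% to 35.1% of naive ESC summits and 43.3% to 46.9% of SOX2-ON summits lay over 50 kb from such a start, without overlap. Promoters, within 1000 bp of a start, took few sites of any kind. They held 4.62%, 3.94% and 4.47% of summits in naive ESC and 4.73%, 4.29% and 5.02% in SOX2-ON, ranges that overlapped (difference 0.341 percentage points, exact permutation p = 0.4). Introns held 44.4% of sites only in naive ESC and 38.5% of those only in SOX2-ON, and stretches between genes 53.2% and 59.1%. The X chromosome held 2.02% to 2.31% of naive ESC peaks and 3.5% to 4.0% of SOX2-ON peaks in lists of equal length.

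Recognition sequences of 12 transcription factors or families were searched within 100 bp of each summit, on both strands. Besides SOX, TCF and the composite OCT-SOX sequence (15 letters, up to 2 mismatches, which can contain a SOX and an OCT sequence), these were the pluripotency factor sequences of OCT (ATGCAAAT), of the receptor ESRRB (TCAAGGTCA) and of the Krüppel-like factors, KLF (CCACACCC). Caudal and neural factors were represented by brachyury, T (GGTGTG), by the caudal homeobox family, CDX (TTTATGG, also with the sixth letter replaced by T), and by the zinc-finger family ZIC (CAGCAGG). The remaining sequences were those of the stress-responsive complex AP-1 (TGACTCA, also with the middle letter replaced by G), of the NODAL effector FOXH1 (AATCCACA) and of the endodermal GATA family, for which the letters AGATAA were searched. The SOX and TCF sequences open with the same letters but differ at their last bases. Windows 5000 bp away from the summits served as background.

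The TCF sequence, through which β-catenin is recruited, was under 48.2%, 46.8% and 47.3% of naive ESC summits and 47.9%, 50.3% and 49.1% of SOX2-ON summits, against a background of 8.26% and 9.36%. The ranges overlapped, and the difference was 1.67 points (exact permutation p = 0.2, 0.3 adjusted over the 12 sequences). It turned to −5.20 in lists of 20000 peaks and to −1.07 within 50 bp. A p that misses the threshold does not show that the rates were equal.

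Sequences of naive pluripotency factors were commoner under naive ESC summits. The ESRRB sequence, of an orphan nuclear receptor of the naive network, was under 2.16%, 2.31% and 2.51% of naive ESC summits and 0.263%, 0.526% and 0.409% of SOX2-ON summits, with backgrounds of 0.575% and 0.536%. In SOX2-ON it thus stood at or below background. The KLF sequence was under 3.13%, 2.98% and 3.33% in naive ESC and 1.23%, 1.40% and 1.26% in SOX2-ON, where the background was 1.54% and 1.30%. Among sites found in 1 condition only the contrast was sharper. The ESRRB sequence was under 4.62% of the 865 naive ESC sites and 0% of the 646 SOX2-ON sites, and the KLF sequence under 4.74% and 1.24%.

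SOX2-ON summits had more SOX, GATA and AP-1 sequences in lists of this length. The SOX sequence was under 58.9%, 57.4% and 52.5% of SOX2-ON summits and 50.6%, 50.6% and 50.5% of naive ESC summits, with backgrounds of 26.7% and 25.7%. That difference of 5.72 points turned to −2.15 in longer lists of 20000 peaks. The GATA sequence was under 15.5%, 17.6% and 15.9% of SOX2-ON summits and 10.96%, 11.95% and 11.80% of naive ESC summits, the latter at their background of 11.7%. It was under 22.0% of sites only in SOX2-ON and 9.94% of sites only in naive ESC. The windows of these sites had a median content of G and C of 44.8% and 47.3%. The part of base content in the sequence shares was not tested. In lists of 20000 peaks the GATA difference was 2.57 points, against 4.74 here. The AP-1 sequence was rare, under 4.50%, 4.56% and 3.27% of SOX2-ON summits and 2.78%, 2.72% and 2.86% of naive ESC summits, with backgrounds of 3.59% and 3.58%. In all, 7 of 12 sequences did not overlap between the conditions, each with exact permutation p = 0.1, the smallest possible, and 0.171 adjusted over the 12. The composite OCT-SOX sequence (1.68% and 1.69%), OCT (5.79% and 5.49%), CDX (5.65% and 5.89%) and ZIC (20.0% and 17.3%), each given as the mean in naive ESC and then in SOX2-ON, overlapped between conditions. In the same order, the T sequence was under 15.9% and 12.5% of summits, with backgrounds of 14.4% and 12.5%, and was above background in each naive ESC library. Its letters, read on the other strand, lie within the KLF sequence. The FOXH1 sequence was under 1.03% and 0.808%, with backgrounds of 0.954% and 0.993%. In lists of 20000 peaks the FOXH1 difference was −0.01 points (exact permutation p = 0.8). The AP-1 difference had an exact permutation p of 0.2 within 50 bp and within 250 bp.

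**Figure D2:**
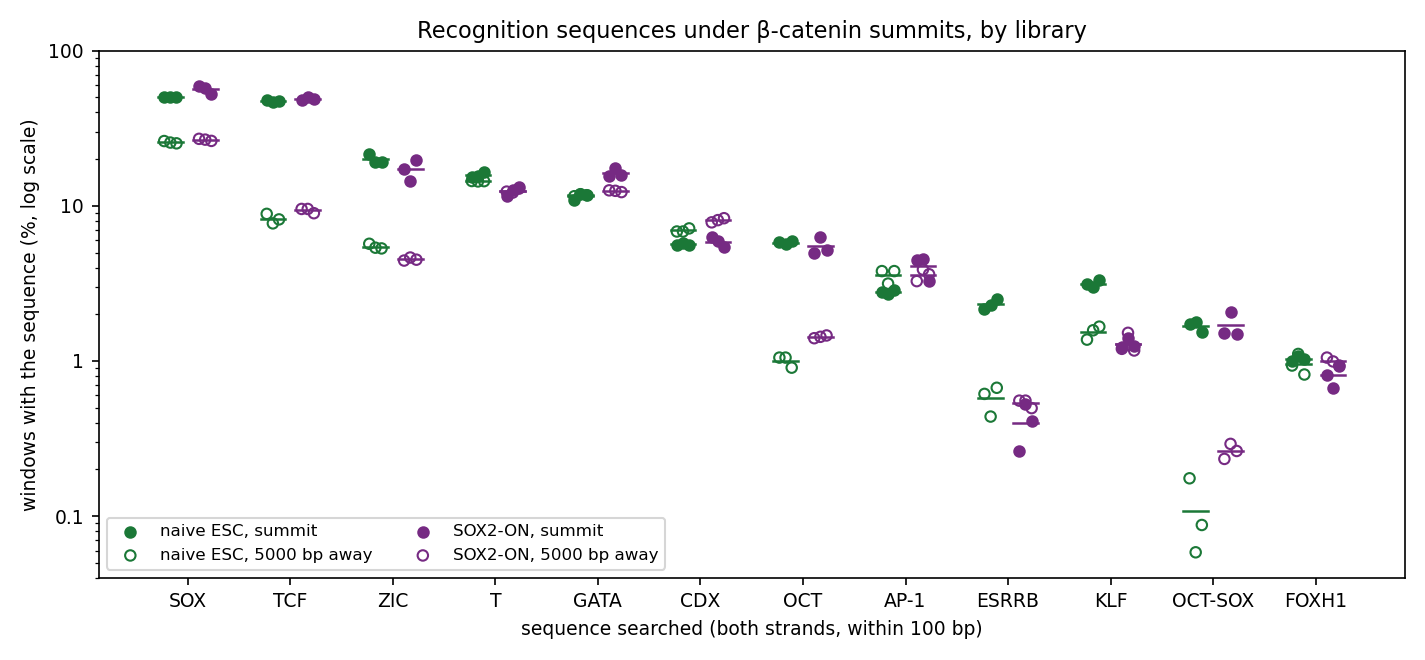
Share of β-catenin summits (filled) and of windows 5000 bp away (open) that hold each of 12 sequences within 100 bp, as percent on a log scale, for 3 naive ESC and 3 SOX2-ON libraries of 3423 peaks (short bars, means). ESRRB (2.33% against 0.399%) and KLF (3.15% against 1.30%) separate the conditions, and TCF sits well above its background in both, at 47.4% and 49.1%.

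Libraries of the other proteins, which took no part in choosing the sites, were set on them next. A site was counted as met when a peak covered at least 10% of it. The strongest SOX2 peaks differed between the conditions in the same direction as those of β-catenin. Lists of 20000 SOX2 peaks met 63.5%, 86.9% and 82.8% of the sites only in naive ESC when taken from naive ESC, and 20.6%, 22.3% and 24.3% when taken from SOX2-ON. At sites only in SOX2-ON the order was the opposite, with 25.9%, 40.4% and 33.4% met by SOX2 of naive ESC and 82.5%, 76.8% and 80.7% by SOX2 of SOX2-ON. Sites in all 6 β-catenin libraries were met by SOX2 at 77.5% to 91.7% in naive ESC and 80.4% to 86.1% in SOX2-ON. These shares hold for the strongest SOX2 peaks. With all deposited SOX2 peaks, naive ESC met 76.6%, 63.8% and 53.3% of the sites only in SOX2-ON, and SOX2-ON met 38.2%, 40.5% and 55.4% of the sites only in naive ESC. At the sites of their own condition these full lists met 96.1%, 97.0% and 93.2% in naive ESC and 90.9%, 86.7% and 93.5% in SOX2-ON.

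The TCF/LEF proteins divided in the same way. TCF7L1, the family member best known as a repressor in ESC, met 51.2%, 54.9% and 57.2% of sites only in naive ESC with naive ESC lists of 1628 peaks, and 0.116%, 0.925% and 0.462% with SOX2-ON lists. It met 0.464%, 0% and 0.310% of sites only in SOX2-ON with naive ESC lists and 10.5%, 49.4% and 49.8% with SOX2-ON lists. With all deposited peaks the same sites were often met by weaker TCF7L1 peaks, at 0.809%, 49.1% and 81.8% of sites only in naive ESC with SOX2-ON lists and at 86.4%, 68.0% and 85.9% of sites only in SOX2-ON with naive ESC lists. At the sites of their own condition these full lists met 100%, 99.9% and 100% in naive ESC and 28.6%, 98.9% and 99.8% in SOX2-ON. In lists of 1628 peaks the first SOX2-ON library of TCF7L1 stood apart, since it met 32.2% of sites common to all 6 β-catenin libraries against 82.7% and 82.6% in the others. LEF1 of SOX2-ON met 37.8%, 67.0% and 41.2% of sites only in SOX2-ON and at most 3.47% of sites only in naive ESC. LEF1 of naive ESC met 0.347%, 67.9% and 16.8% of sites only in naive ESC, and its first library stood apart there too, with 2.43% of common sites against 85.5% and 35.8%. With all deposited peaks, LEF1 of SOX2-ON met 31.9%, 23.9% and 61.2% of sites only in naive ESC. LEF1 of naive ESC then met 5.26%, 55.3% and 51.4% of sites only in SOX2-ON. At the sites of their own condition these full LEF1 lists met 4.62%, 94.7% and 85.2% in naive ESC and 82.0%, 89.8% and 93.7% in SOX2-ON. TCF7L2 met 10.1%, 41.2% and 18.5% of sites only in naive ESC with naive ESC lists, and 14.9%, 21.8% and 25.1% of sites only in SOX2-ON with SOX2-ON lists. With all deposited peaks, TCF7L2 of SOX2-ON met 16.1%, 5.66% and 28.2% of sites only in naive ESC. TCF7L2 of naive ESC then met 8.67%, 23.1% and 31.6% of sites only in SOX2-ON. At the sites of their own condition these full TCF7L2 lists met 25.3%, 77.9% and 70.4% in naive ESC and 53.4%, 44.0% and 79.3% in SOX2-ON.

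For each of these libraries an index was formed, the log2 odds of meeting a site only in SOX2-ON minus the log2 odds of meeting a site only in naive ESC. SOX2 libraries scored −2.95 ± 0.55 (SD, n = 3) if made from naive ESC and 3.80 ± 0.34 (SD, n = 3) if made from SOX2-ON, which is 6.75 higher. The differences were 7.83 for LEF1, 15.64 for TCF7L1 and 7.99 for TCF7L2. In all 4 proteins the 3 SOX2-ON libraries lay above the 3 naive ESC libraries (exact permutation p = 0.1, the smallest possible, 0.1 adjusted over the 4). With all deposited peaks the differences were 7.13 for SOX2, 5.79 for LEF1, 14.30 for TCF7L1 and 5.76 for TCF7L2, at the same p. Without replicate 1, which holds both libraries that stood apart, the differences were 6.88, 8.76, 16.62 and 9.06 in the order SOX2, LEF1, TCF7L1 and TCF7L2.

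β-catenin libraries of the 2 low-SOX2 states, which share the media of SOX2-ON, were set on the same sites. Equal-length lists of CEpiLC met 32.8%, 32.8% and 31.3% of sites only in SOX2-ON and 8.21%, 8.32% and 7.05% of sites only in naive ESC. Lists of SOX2-OFF met 35.8%, 40.4% and 39.3% against 8.67%, 5.43% and 9.02%. Every one of these 6 libraries thus met more of the SOX2-ON sites than of the naive ESC sites, on average by 27.6 percentage points, and none of these libraries took part in choosing them. The rates over all 7963 sites were 21.6% to 26.1%. Yet 324 (50.2%) of the sites only in SOX2-ON were met by no low-SOX2 library, as were 724 (83.7%) of the sites only in naive ESC and 182 (22.1%) of those in all 6. All 6 low-SOX2 libraries met 146 (22.6%) of the sites only in SOX2-ON. With all deposited peaks, single CEpiLC libraries met 41.3% to 60.1% of these sites and single SOX2-OFF libraries 40.4% to 71.1%. The same full lists met 15.1% to 28.4% (CEpiLC) and 5.43% to 46.0% (SOX2-OFF) of the sites only in naive ESC. Medium and developmental state cannot be told apart in this overlap.

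**Figure D3:**
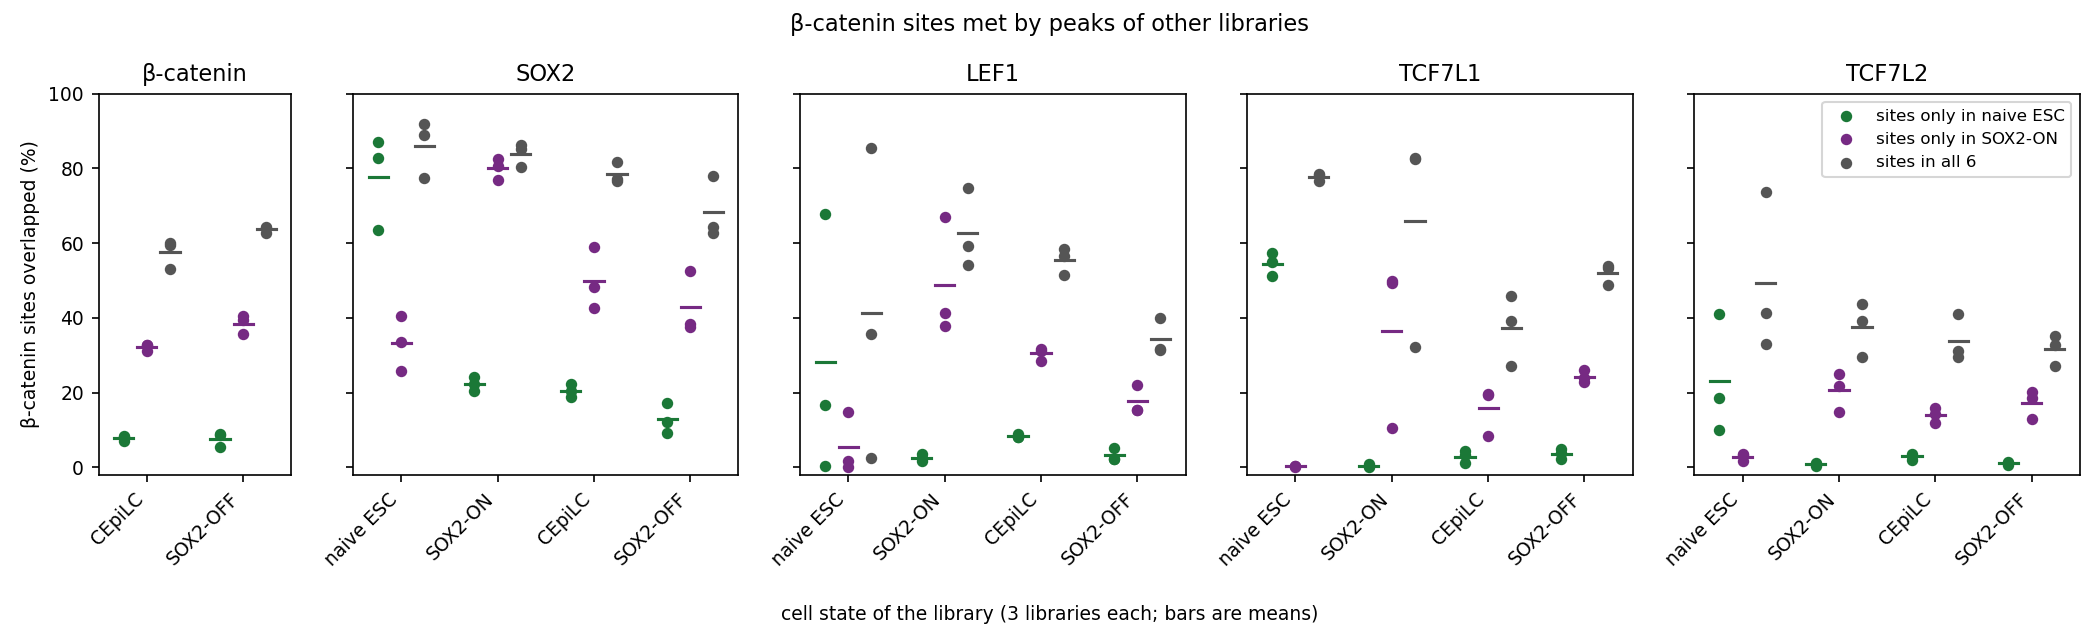
Percent of β-catenin sites only in naive ESC (865), only in SOX2-ON (646) and in all 6 libraries (822) met by peaks of β-catenin, SOX2, LEF1, TCF7L1 and TCF7L2 libraries of each cell state, 1 point a library and bars for means. Libraries of SOX2 and TCF7L1 from naive ESC and SOX2-ON meet the sites in all 6 most. Of the other 2 classes they meet more of the sites of their own condition. CEpiLC and SOX2-OFF β-catenin meets 31.3% to 40.4% of SOX2-ON sites but 5.43% to 9.02% of naive ESC sites.

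Strength was compared at the 4822 sites that had a peak in all 6 full lists, with limma on the log2 deposited fold after quantile normalization. At an adjusted p below 0.05 (Benjamini-Hochberg), 730 sites (15.1%) had a higher fold in naive ESC and 722 (15.0%) in SOX2-ON. The median change was −1.37 (log2, SOX2-ON minus naive ESC) in the former and 1.30 in the latter. Without normalization the counts were 672 and 296 and the median over all sites shifted from 0.02 to −0.19, so that the balance of higher to lower calls depends on the scaling. As in the position classes, sites higher in SOX2-ON lay farther from a start (median 44.5 kb against 21.1 kb). β-catenin of the low-SOX2 states met 42.8% to 48.5% of them and 22.1% to 31.0% of the sites higher in naive ESC, against 28.9% to 33.7% over all 4822.

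The widest difference toward naive ESC was in an intron of Nin, a centrosomal protein gene, 525 bp from its start at chr12:70102872-70103848. Its fold was 74.9, 49.2 and 90.6 in naive ESC and 4.75, 4.47 and 3.48 in SOX2-ON, a log2 difference of −3.85 (SE 0.33, limma adjusted p = 1.96e-08). It was followed by sites in introns of the DNA repair gene Fancm (−3.34), of Patz1 (−3.32) and of B4galnt2 (−3.29), and 45101 bp upstream of the transporter gene Slc1a4 (−3.21). Patz1 thus had a strong naive ESC site both upstream and within the gene.

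Toward SOX2-ON the widest difference lay 248549 bp upstream of Epha7, an ephrin receptor of the developing nervous system, at chr4:28564200-28565038. Its fold was 8.47, 4.45 and 3.95 in naive ESC and 62.4, 42.2 and 44.0 in SOX2-ON, a difference of 3.41 (SE 0.34, limma adjusted p = 9.09e-08). The next lay beyond Bcl11a (3.30), a zinc-finger repressor of neurons and blood, 346860 bp downstream of its start. Sites 2052 bp upstream of Soat1 (3.16), 255294 bp downstream of the start of Cep170 (2.92) and 288909 bp upstream of Zfp608 (2.91) completed the 5. None of the 10 sites overlapped between conditions in deposited fold, and all kept their call without normalization. All 5 sites toward SOX2-ON lay between genes, and 4 of the 5 toward naive ESC lay in introns.

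Gene loci, the gene body with 10 kb upstream, were then read against lists of developmental genes. Of 21938 protein-coding genes, 436 (1.99%) had a peak of the equal-length lists in all 3 naive ESC libraries and no SOX2-ON library, 235 (1.07%) had the opposite, and 575 (2.62%) had one in all 6. At least 2 more naive ESC than SOX2-ON libraries held a peak at 845 loci (3.85%), and at least 2 more SOX2-ON libraries at 549 (2.50%). A peak in at least 1 library was found at 15.6% of loci. Longer loci have more room for peaks, which these counts do not correct. Below, a locus is called bound in 1 condition only, or in a number of libraries, by the equal-length lists. It can hold weaker peaks in the full lists of the other libraries. Values below are the fold of the strongest peak in the locus in the full lists. That peak can lie at different places in different libraries, for example at Cdh2, Msgn1, T, Evx1, Tbx3, Cdx1 and Esrrb.

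Among 15 naive pluripotency genes, 11 had a peak in some library and 5 in all 6, and none was bound in 1 condition only. Klf2 (folds 42.2, 31.2 and 63.7 in naive ESC and 27.7, 24.8 and 26.4 in SOX2-ON), Dppa3 (44.0, 26.4 and 36.5, then 26.1, 19.2 and 22.2) and Esrrb (30.5, 18.7 and 34.3, then 16.1, 14.3 and 20.7) kept peaks in all 6. Klf2 is a KLF factor of the naive network and Dppa3 a maternal factor that guards methylation. In Klf2 and Dppa3 the 3 naive ESC values lay above the 3 SOX2-ON values, while those of Esrrb overlapped. The fit at shared sites called neither of these peaks (−0.47, limma adjusted p = 0.19 for Klf2, and −0.37, adjusted p = 0.33 for Dppa3). Tbx3, a T-box factor of naive cells, fell from 3 libraries to 1 (30.7, 25.8 and 26.0, then 8.10, 6.29 and 16.6), and the nuclear receptor gene Nr5a2 from 2 to 0. Klf4 went the other way, from 1 naive ESC library to 3 SOX2-ON libraries, with folds of 25.8, 5.72 and 14.8 and then 16.3, 10.2 and 35.9 that overlapped.

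Loci of the naive list held 17 of the 4822 shared sites, of which 6 had a higher fold in naive ESC and 1 in SOX2-ON, against 15.1% and 15.0% over all shared sites. The median difference was −0.59, against 0.02. The 6 were at Esrrb (−2.12, SE 0.44, limma adjusted p = 0.00061), Tet2 (−1.92), Prdm14 (−1.70), Tfcp2l1 (−1.48 and −1.31) and Tbx3 (−1.42). Tet2 encodes a 5-methylcytosine oxidase, and Prdm14 and Tfcp2l1 are regulators of the naive state. At the Tfcp2l1 site with the larger difference the fold was 72.3, 40.4 and 71.1 in naive ESC and 12.3, 14.1 and 34.4 in SOX2-ON. The single site higher in SOX2-ON was a weak one upstream of Nanog (1.02, limma adjusted p = 0.039), which lost its call without normalization. The site next to the Nanog start differed by −0.30 (adjusted p = 0.55).

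Core pluripotency genes, which stay on in the epiblast, gave no call at shared sites, where 0 of 6 passed the limma test in either direction, and 0 had an unadjusted p below 0.05. At the shares over all shared sites a list of this size would hold few calls, and the median difference was 0.13. Pou5f1, which encodes OCT4, had locus folds of 35.3, 13.4 and 36.5 in naive ESC and 34.8, 17.0 and 43.0 in SOX2-ON. Those of Lin28a, an RNA-binding inhibitor of let-7, were 40.9, 17.0 and 33.3 and then 29.6, 23.5 and 30.4. Both genes had a peak in all 6 libraries, and their values overlapped. Tdgf1, a NODAL co-receptor, was in 3 naive ESC libraries and 1 SOX2-ON library.

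In the primed epiblast list of 13 genes, 1 locus had equal-length peaks in SOX2-ON only and none in naive ESC only. That locus, of the neural and mesodermal cadherin Cdh2, had weaker peaks in all 3 full naive ESC lists. Its folds were 12.05, 6.77 and 7.92 in naive ESC and 28.4, 20.5 and 22.3 in SOX2-ON, without overlap. The strongest naive ESC peaks lay at other places in the locus than those of SOX2-ON. At the intronic site of the SOX2-ON peaks the naive ESC folds were 7.95, 3.73 and 7.53. That site differed by 2.21 (SE 0.36, limma adjusted p = 5.21e-05). Lefty2, a NODAL inhibitor, was in 2 naive ESC libraries and no SOX2-ON library. Nodal was in all 6, with folds of 33.0, 19.6 and 31.8 and then 40.6, 15.0 and 18.7.

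Loci of caudal genes held 16 shared sites, of which 1 had a higher fold in naive ESC and 1 in SOX2-ON. Over all shared sites these shares were 15.1% and 15.0%, and the median difference was 0.02 in both. Single caudal loci differed in both directions. By the equal-length lists, 2 of 20 loci were bound in naive ESC only, 1 in SOX2-ON only and 4 in all 6. Over all genes these shares were 1.99%, 1.07% and 2.62%. Cdx2, the caudal homeobox factor, was among the strongest in both states, with folds of 104, 70.8 and 109 in naive ESC and 91.2, 70.2 and 107 in SOX2-ON, and its site differed by 0.05 (SE 0.17, adjusted p = 0.84). The paralog Cdx1 had folds of 68.7, 56.2 and 109.7 and then 56.1, 39.6 and 63.0, and 1 of its sites was lower in SOX2-ON (−0.97, SE 0.23, limma adjusted p = 0.0025). Wnt5b, a non-canonical ligand, was also in all 6. T, the primitive streak factor brachyury, was in 1 naive ESC library and 3 SOX2-ON libraries, with folds of 15.0, 6.34 and 9.84 and then 33.3, 15.3 and 50.5, all SOX2-ON values above the naive ESC values. Evx1, a homeobox gene of the posterior streak, was in SOX2-ON only (9.95, 5.23 and 11.7, then 23.7, 19.3 and 24.3), and its upstream site rose by 1.89 (SE 0.35, limma adjusted p = 0.00018). Msgn1, of presomitic mesoderm, was in naive ESC only, with folds of 46.4, 23.7 and 42.4, and in SOX2-ON it had weak peaks of 4.66 and 3.54 in 2 libraries and none in replicate 2. Those weak peaks lay at other places in the locus, with summits at 11213709 and 11209209 against 11216598 to 11216627 in naive ESC. Wnt8a was likewise in naive ESC only (15.0, 10.4 and 14.1, then 8.61, 7.66 and 7.71).

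WNT feedback genes, which report and restrain the pathway, were bound in both states and more strongly at several sites in SOX2-ON. Of 17 loci, 15 had a peak and 7 had one in all 6. Their loci held 29 of the shared sites, of which 8 had a higher fold in SOX2-ON, 0 in naive ESC (11 and 1 at an unadjusted limma p below 0.05), and the median difference was 0.43, against 15.0% and 15.1% and a median of 0.02 over all shared sites. They were 2 sites of Znrf3 (1.76 and 1.52), which encodes a ligase that removes WNT receptors, and sites of Lef1 (1.30, SE 0.22, limma adjusted p = 8.06e-05), Lgr5 (1.21), Sp5 (1.12), Cd44 (1.00), Myc (0.86) and Axin2 (0.70). Without normalization the calls at Lgr5, Cd44, Myc and Axin2 were lost, and those at Znrf3, Lef1 and Sp5 were kept.

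By locus, Lef1 rose from folds of 43.4, 26.3 and 40.9 in naive ESC to 100.0, 54.5 and 81.3 in SOX2-ON, without overlap. Sp5, a direct WNT target that limits its own pathway, had 72.1, 29.6 and 62.9 and then 117, 59.6 and 145, which overlapped. Myc had 58.9, 23.7 and 42.1 and then 53.1, 52.8 and 80.0. Nkd1, an inhibitor of Dishevelled, was the 1 locus bound in SOX2-ON only, Rnf43 went from 1 library to 3 and Dkk1, a secreted inhibitor, from 0 to 2. Notum, a secreted enzyme that inactivates WNT ligands, was bound in naive ESC only (15.6, 8.66 and 12.5, then 4.35 and 6.91 in 2 libraries). At Tcf7l1 the strongest peak of SOX2-ON replicate 1, with a fold of 67.0, lay over a coding exon that had no such peak in SOX2-ON replicate 2, and none of its 4 shared sites passed the test.

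Of 18 Hox genes, 4 had any peak and none was bound in 1 condition only. Hoxd1 was in 1 naive ESC library and 3 SOX2-ON libraries, with folds of 36.5 and 10.4 in naive ESC, none in replicate 2, and 30.2, 26.6 and 37.1 in SOX2-ON. Hoxb4 was in 2 naive ESC libraries and no SOX2-ON library. Among 12 neural genes 4 had a peak, each in more SOX2-ON than naive ESC libraries. Of the 3414 loci of all genes with a peak, 1228 were in more SOX2-ON libraries and 1458 in more naive ESC libraries. Neurog2 and Six3, proneural and forebrain factors, were each in 2 SOX2-ON libraries and no naive ESC library. The 2 shared sites of the neural list, at Hes3 and Olig3, were not called (limma adjusted p = 0.24 and 0.30). Of 10 loci of feeder fibroblast genes, only Pdgfrb had a peak, and its strongest summit was the one counted for its neighbour Cdx1.

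**Figure D4:**
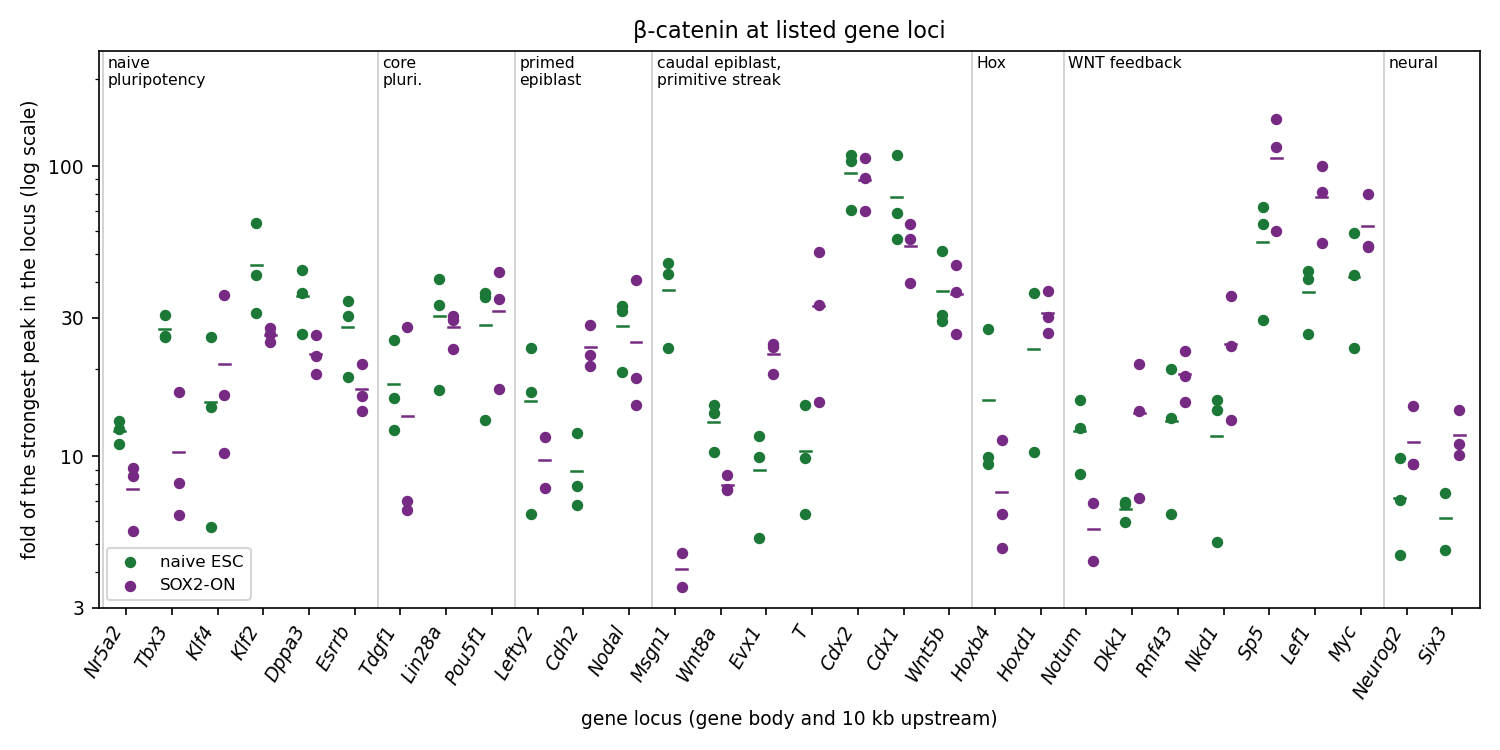
Fold of the strongest β-catenin peak (log scale, full lists) in each named gene locus, 1 point a library, bars for means over the libraries with a peak, for naive ESC and SOX2-ON. Tbx3, of the naive list, and Msgn1, of the caudal list, are higher in naive ESC, Cdh2, Evx1, T and Lef1 are higher in SOX2-ON, and Cdx2 is alike at 70.2 to 109 in both. The strongest peak need not lie at the same place in every library.

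**Figure D5:**
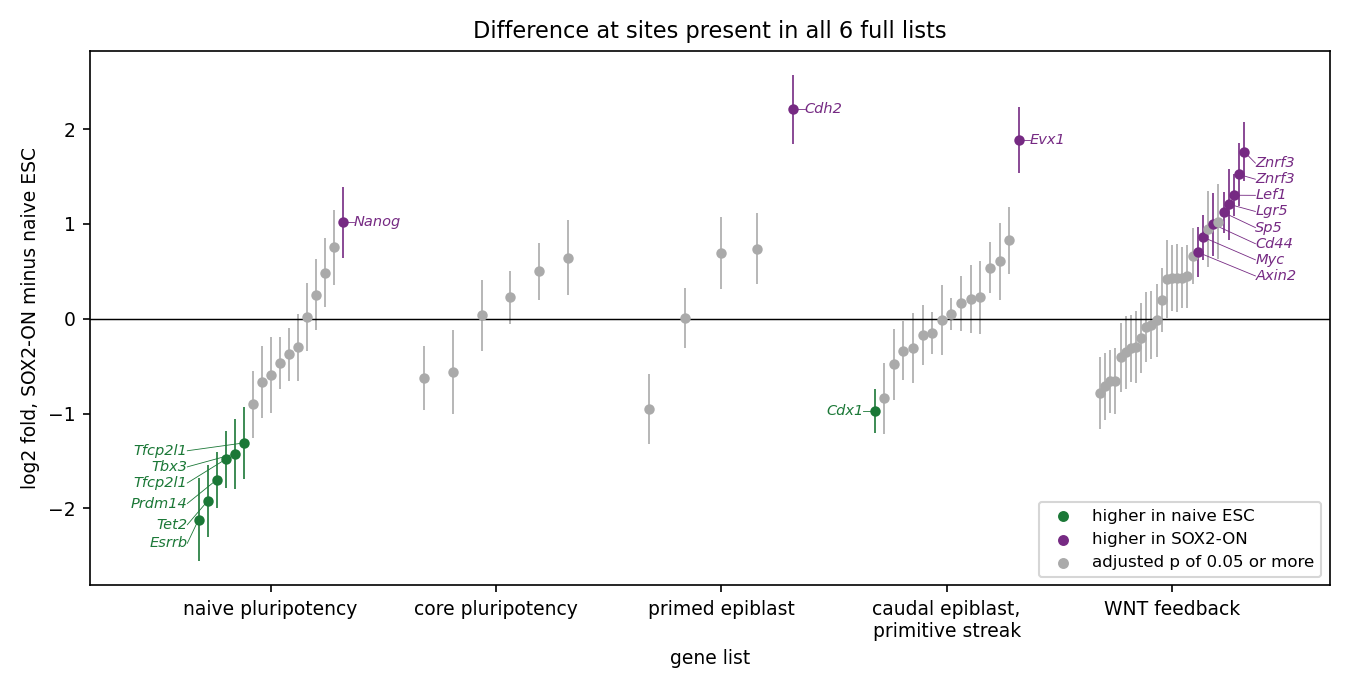
Log2 fold, SOX2-ON minus naive ESC, of each shared site in the loci of 5 gene lists, with standard errors, ordered by value within a list and coloured where the limma adjusted p is under 0.05. Of 17 naive pluripotency sites 6 are higher in naive ESC and 1 in SOX2-ON, and of 29 WNT feedback sites 8 are higher in SOX2-ON and 0 in naive ESC.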

How the data were processed

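Members and gene lists were chosen with earlier results of these data known. The study used 76 bp single-end reads, and according to its methods replicates came from separate experiments. The authors aligned the reads to mm10 with BWA within nf-core/chipseq and called peaks for each library with MACS2 at its default q-value below 0.05, so replicates were not pooled. Input pairing is not given in the sources used here. The deposited lists give each peak's fold (a ratio over background), its −log10 p-value and −log10 q-value, and a score derived from the q-value. Authors' comparison files were not used here, and 1 gene of the fixed lists is not reported here.

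No peak lay past a GRCm38.p6 chromosome end. Peaks were ranked by −log10 p-value, lists shortened to 3423 peaks, and overlapping peaks merged with Python 3.11.15. Lists of the other proteins were shortened in the same way to the shortest of their 12, at most 20000. Genes were GENCODE M21 protein-coding models. The index adds 0.5 to each count. Library values were compared by two-sided exact permutation, and shared sites with limma 3.58.1 in R 4.3.3 (trend, no block), after tests on simulated data. Named sites were the 5 per direction with the highest median fold and no peak in the other condition's full lists, the 4 common sites with the highest lowest fold, and the 5 called shared sites per direction with the largest difference. Named genes were list members whose library numbers differed by 2 or 3, and up to 3 per list with peaks in all 6. Shared sites called in listed loci were also named, a choice made after their values were seen. The permutation p-values rest on the 3 libraries of each condition alone. Those of limma also draw on a variance estimated over all tested sites.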

Additional observations from a re-analysis of the deposited data

How the results depend on the processing

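Counts of sites changed with list length. With 2000, 10000, 20000 and all deposited peaks, sites only in naive ESC numbered 531, 2016, 2874 and 3917, sites only in SOX2-ON 374, 940, 960 and 1912, and sites in all 6 libraries 499, 1826, 2510 and 4822. Requiring absence from the full lists of the other condition left 120 and 67. Leaving out 1 replicate of both conditions gave 1127 to 1233, 919 to 1014 and 944 to 993. Gene loci only in SOX2-ON numbered 146 with 2000 peaks and 151 with all, and with 50 kb on both sides of the gene body 502 were only in SOX2-ON and 1060 only in naive ESC. With all peaks only 6 loci were only in naive ESC. The share of peaks at promoters turned to −0.100 points with 2000 peaks and −2.98 with all. Sequence shares, SOX2-ON minus naive ESC, turned in lists of 20000 peaks for SOX (−2.15), TCF (−5.20) and OCT-SOX (−0.317). Within 50 bp they turned for TCF (−1.07), OCT-SOX (−0.0292) and CDX (−0.0390), and within 250 bp for OCT (0.0974). Leaving out 1 replicate gave −0.0146 to 0.453 for CDX, −0.789 to 0 for OCT and −0.131 to 0.117 for OCT-SOX. None of these shares passed a test. At shared sites, calls higher in naive ESC and in SOX2-ON were 672 and 296 without normalization and 389 and 404 of 2510 sites in lists of at most 20000 peaks, where fewer sites were tested. The cause of the other changes was not tested.

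Deviations of libraries with the same number correlated at 0.109, 0.0483 and 0.00669 over the shared sites. These low values cannot decide whether the numbers pair the libraries, since both replicate 1 libraries shared the strong exon peaks described above. With a replicate block the counts were 807 and 803, including 730 and 721 of the same sites. Separation of libraries by condition kept its direction with every list tried, from 0.0381 with all deposited peaks, where p was 0.2, to 0.244, and in each of the 4 protein indices the difference did under every alternative run. No exact permutation test of 3 against 3 libraries could pass 0.05, and depth was unknown.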
